A study of Homo sapiens with 18 samples.

Results

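The genes described here are 44 collagens, matrix glycoproteins, proteoglycans, elastic fibre components and crosslinking enzymes of the extracellular matrix, out of 19775 genes named on the array. They were taken as a fixed list of symbols, chosen with earlier results of these data known. Each was read through 1 probe set, the one with the highest mean log2(intensity + 1) over the 18 arrays. All 44 had a probe set. RNA was measured on single-colour Affymetrix arrays in 3 related human cell lines. MCF10A-CT are control MCF10A cells, an established nonmalignant human mammary epithelial line, kept in standard medium. MC26 are MCF10A cells kept for a long time with BMP2 and IL6, a bone morphogenetic protein and an interleukin. M1B26 came from MCF10A cells sorted for the BMP receptor BMPR1B, kept with the same 2 factors, passed through soft agar and expanded from 3 colonies, so that they are a narrow sample of the starting cells. The labels give BMP2 in the MC26 and M1B26 medium as 5 ng/ml in one field and 10 ng/ml in another, and IL6 as 10 ng/ml. Each line was hybridised as unsorted cells, as cells sorted as CD10- and as cells sorted as CD10+, with 2 replicates in each of the 9 groups. The replicates are called biological, but whether they came from separate cultures is not stated, so that p-values measure only the spread between these arrays.

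Fibrillar collagens such as types I, III and V form the main fibres of connective tissue, while collagen IV builds the sheet of the basement membrane on which epithelium sits and collagen VI forms beaded filaments next to it. Fibronectin, tenascin and periostin are glycoproteins that join cells to these fibres. Small leucine-rich proteoglycans such as decorin and lumican coat fibrils, fibrillins and fibulins build elastic fibres, and lysyl oxidases crosslink collagen and elastin. Mammary epithelial cells are known for making basement membrane, and most interstitial matrix in breast is made by fibroblasts.

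The arrays limit precision by their number. All 18 had the same median intensity of 16.7, and pairs of arrays correlated at 0.90 to 0.96 over all probe sets. CD10 is the product of MME, a cell surface peptidase, and MME checks the sort. MME read 9.73 and 11.2 in CD10- and 48.3 and 65.0 in CD10+ MCF10A-CT cells, 27.9 and 6.39 against 69.8 and 90.7 in MC26, and 56.4 and 15.9 against 1269 and 1021 in M1B26, so CD10+ arrays were above CD10- arrays in each line. The 7 epithelial markers of 9 that were named on the array were above background in all 9 groups, and in CD10+ M1B26 they went different ways. EPCAM and CDH1, which join epithelial cells, the integrin gene ITGA6 and the keratin gene KRT18 had their lowest group means there (145, 46.3, 1040 and 2920), KRT8 had its highest (1780, against 458 to 927 elsewhere), and KRT5 and KRT14 lay within the range of the other groups. Of the 11 fibroblast and pericyte markers, 5 are members here. The summed intensity of all 11 was 6620 and 6920 in CD10+ M1B26 against 431 to 2050 elsewhere. Most of that in CD10+ M1B26 was DCN. LUM (554), ACTA2 (531), RGS5 (41) and THY1 (21.1) also had their highest group means there, while FAP, COL1A1 and COL1A2 lay within the range of the other groups. PDGFRA, PDGFRB and COL3A1 were near background in every group. The leukocyte marker PTPRC, the endothelial markers CDH5 and VWF and the 3 adipocyte markers were also near background throughout. CD14 (144 to 382), ITGAM (15.0 to 31.2) and PECAM1 (32 to 45.4) were above background in all 9 groups, TEK in 7, CD3E in 3 and KDR in 1. Their part in the results was not tested.

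Background was set at the median of all probe set means, an intensity of 14.3. Of the 44 members 28 were above it in all 9 groups, 11 in some, and 5 were near background throughout, namely the fibrillar collagens COL3A1 and COL5A1, the basement membrane linker NID2, the glycoprotein THBS2 and the proteoglycan BGN. The arrays of these 5 read between 0.50 and 15.9. With background drawn at the 40th or the 60th percentile, 4 or 9 members were near it throughout. The differences below were tested for 32 members whose mean over all arrays was above background, out of 12171 genes tested in all. None of the 32 passed that limit only through its highest group. The other 12 are the 5 just named and COL1A2, NID1, COL6A2, MATN2, LUM, MFAP2 and PCOLCE, each above background in at least 1 group.

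**Figure D1:**
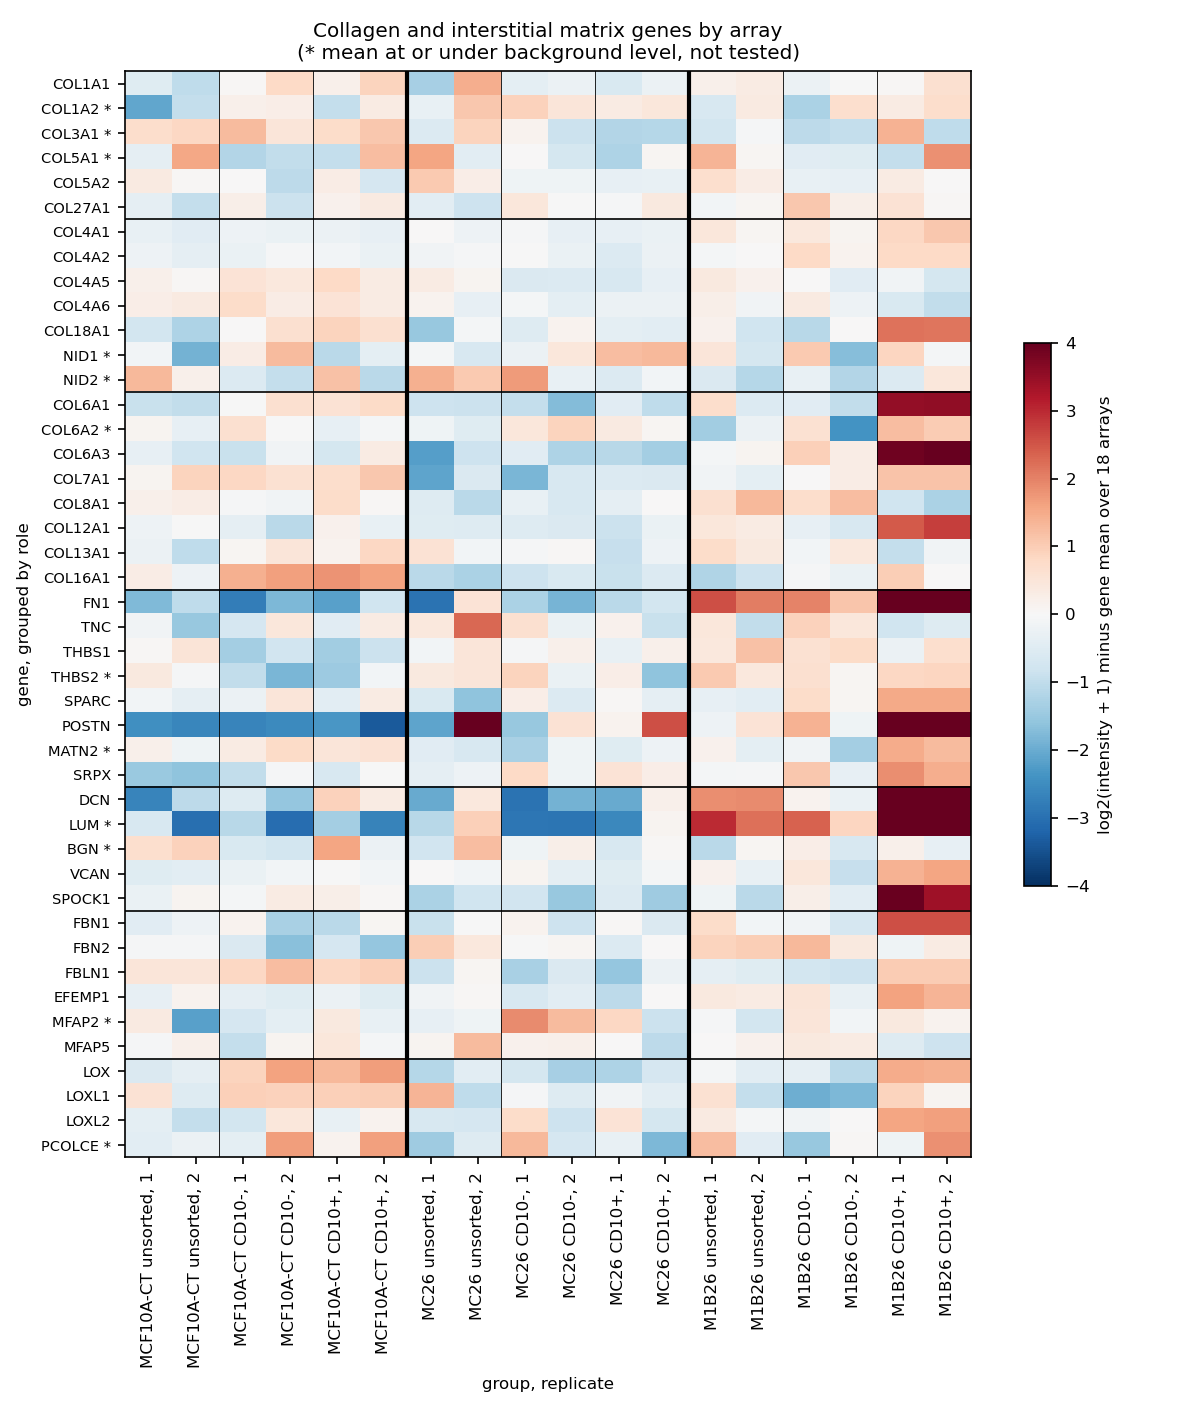
Heat map of log2(intensity + 1) of the 44 genes (rows, grouped by role, * not tested) in 18 arrays (columns), each gene centred on its mean, with the colour scale ending at 4 in both directions. The 2 CD10+ M1B26 columns hold the strongest red cells, in COL6A1, COL6A3, COL12A1, FN1, POSTN, DCN, LUM and SPOCK1, and POSTN is red also in 1 of the 2 unsorted MC26 arrays.

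Per array, the mean of the 32 tested members, each centred on its own mean over the 18 arrays, was 1.40 and 1.36 log2 units in CD10+ M1B26. It was -0.59 to 0.32 in the other 16 arrays. Unsorted M1B26 had 0.32 and 0.08, and the 2 unsorted MC26 arrays stood at -0.59 and 0.03. In MC26 the sorted arrays lay at -0.54 to -0.30, and in MCF10A-CT at -0.22 to 0.10.

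**Figure D2:**
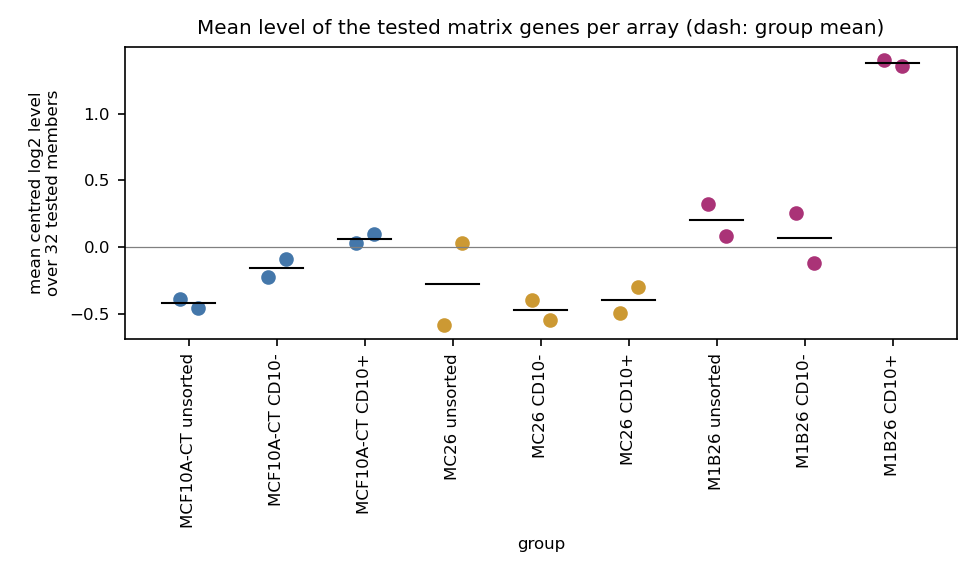
Mean centred log2(intensity + 1) over the 32 tested matrix genes (vertical axis) in each array, by group (horizontal axis), with 1 point per array and a dash for the group mean. Only the CD10+ M1B26 arrays are above 1, at 1.40 and 1.36, and the unsorted MC26 replicates are far apart.

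CD10+ and CD10- cells were first compared within each line. In M1B26, 13 of the 32 tested members were higher in CD10+ cells and 1 was lower, where 3.76% of all 12171 genes tested were higher and 2.74% lower. The members' median log2 difference was 1.20, against 0.01 over all genes tested. Over all 44 members the median was 1.05. Since the list was chosen with earlier results of these data known, the comparison with all genes is descriptive. The 13 were 3 chains of collagens VI and XII, 3 proteoglycans, 3 elastic fibre genes, 2 lysyl oxidases, fibronectin and collagen XVIII, and the lower gene was COL8A1. In bulk RNA of sorted cells, fewer cells of a type and less RNA per cell cannot be told apart. Arrays with the same number within a line deviated together in the 2 sorted populations, and with the replicate as a block 20 members passed. The share of all genes passing in that fit, and in the other block fits below, is not given here.

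**Figure D3:**
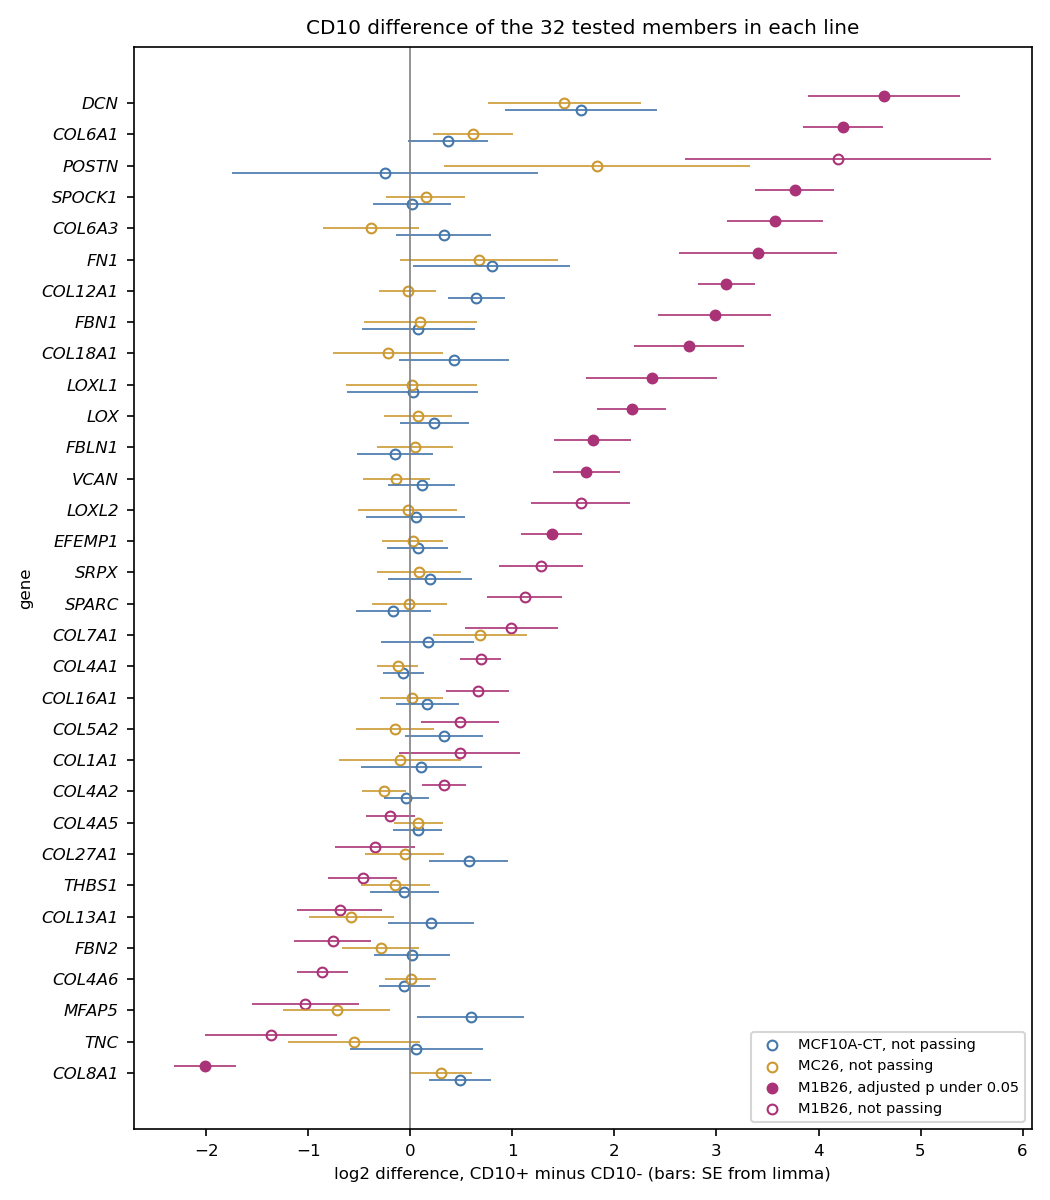
Log2 difference, CD10+ minus CD10- (horizontal axis, bars are SEs), of the 32 tested matrix genes (vertical axis) in MCF10A-CT, MC26 and M1B26, with filled points where the adjusted p was under 0.05. All filled points belong to M1B26, 13 to the right and COL8A1 to the left of 0.

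Collagen VI is a heterotrimer with COL6A1, COL6A2 and COL6A3 as its common chains. Intensities of a gene are given in the order unsorted, CD10- and CD10+, with replicates 1 and 2 of each. COL6A1 read 35.7 and 33.0, 65.3 and 104, and 99.5 and 114 in MCF10A-CT. In MC26 COL6A1 read 36.8 and 36.2, 34.2 and 19.1, and 48.5 and 32.5, and M1B26 gave 108 and 45.1, 48.5 and 33.2, and 764 and 792. The CD10+ M1B26 pair was above every other array. The difference between CD10+ and CD10- M1B26 was 4.24 ± 0.39 on the log2 scale (SE, 2 arrays against 2, adjusted p = 1.23e-05), or 18.9-fold. Intensities of COL6A3 were 56.5 and 39.9, 37.3 and 64.5, and 42.7 and 89.0 in MCF10A-CT. For COL6A3, MC26 gave 14.7 and 39.6, 50.8 and 29.5, and 31.8 and 27.2 and M1B26 66.5 and 75.9, 139 and 87.8, and 1057 and 1664. Here too the CD10+ M1B26 arrays stood alone, 3.57 ± 0.47 above CD10- M1B26 (adjusted p = 0.000205). COL6A2 was too dim to be tested, and its highest readings of 34.2 and 29.5 were in CD10+ M1B26, against 1.83 to 26.4 in the other arrays. The 7 other probe sets of COL6A1 were not above background.

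COL12A1, whose protein decorates the surface of collagen I fibrils, is described beside it. The COL12A1 readings were 119 and 136, 108 and 65.0, and 155 and 112 in MCF10A-CT. They were 98.9 and 97.4, 97.0 and 92.2, and 75.1 and 115 in MC26 and 190.1 and 175, 109.7 and 88.2, and 768 and 939.9 in M1B26. The next highest group after CD10+ M1B26 was unsorted M1B26. CD10+ M1B26 exceeded CD10- M1B26 by 3.10 ± 0.28 (adjusted p = 1.05e-05), and its 3 other probe sets above background gave 0.78 to 2.93. COL8A1, a short-chain collagen of vessel and eye matrix, went the other way. It read 710 and 1042 in CD10- and 250 and 181 in CD10+ M1B26, a difference of -2.01 ± 0.30 (adjusted p = 0.000715). Of the other collagens of this class COL7A1, the anchoring fibril collagen, differed by 0.99 ± 0.46 (adjusted p = 0.25), COL16A1 by 0.66 ± 0.31 and COL13A1 by -0.69 ± 0.42, none of which passed.

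Among the proteoglycans all 3 that were tested were higher in CD10+ M1B26. DCN read 33.0 and 102, 148 and 71.5, and 405 and 269 in MCF10A-CT. In MC26 DCN read 51.3 and 283, 26.4 and 56.8, and 51.9 and 242, and M1B26 gave 779 and 783, 235 and 176, and 5162 and 5034. The 2 CD10+ M1B26 arrays were the highest, unsorted M1B26 came next, and within each line the CD10+ mean was above the CD10- mean. The M1B26 difference in DCN was 4.64 ± 0.75 (adjusted p = 0.00117), and its 3 other probe sets above background gave 4.91 to 5.48. Intensities of SPOCK1 were 87.5 and 114, 101 and 132, and 124 and 110.0 in MCF10A-CT. For SPOCK1, MC26 gave 43.8 and 60.7, 61.5 and 36.6, and 71.5 and 38.9 and M1B26 94.8 and 49.2, 124 and 79.4, and 1655 and 1123. SPOCK1 encodes testican-1, a secreted proteoglycan, and its difference was 3.76 ± 0.39 (adjusted p = 2.51e-05). VCAN, the large hyaluronan-binding proteoglycan versican, read 1197 and 458 in CD10- and 2309 and 2589 in CD10+ M1B26, 1.72 ± 0.33 apart (adjusted p = 0.00422).

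LUM, a fibril-binding proteoglycan like decorin, had the widest range of group means of all 44 members but a mean under the limit for testing. The LUM readings were 4.85 and 0.13, 3.22 and 0.11, and 2.55 and 0.43 in MCF10A-CT. They were 3.22 and 16.7, 0.22 and 0.20, and 0.51 and 8.80 in MC26 and 71.6 and 40.7, 45.8 and 15.4, and 517 and 593 in M1B26. All 6 M1B26 arrays were above background, and 1 of the 12 arrays of the other lines was. In the fit with no limit on dim genes, LUM differed between CD10+ and CD10- M1B26 by 4.32 ± 1.01 (adjusted p = 0.0243), and MATN2, a filament-forming matrilin near background on both CD10- arrays, was at least 2.5-fold higher (adjusted p = 0.0399), with LOXL1 no longer passing. That fit called 14 higher and 1 lower of 44 members, and 2.12% and 1.49% of 19775 genes.

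FN1, the gene of fibronectin, was measured at a higher level in M1B26 than in the other lines in each population. FN1 read 78.3 and 132.7, 38.7 and 76.8, and 58.6 and 155 in MCF10A-CT. In MC26 FN1 read 33.7 and 395, 110.5 and 72.5, and 126 and 162, and M1B26 gave 1606 and 1102, 1063 and 581, and 8258 and 8402. The CD10+ M1B26 arrays were the brightest, the other M1B26 arrays came next, and the 2 unsorted MC26 arrays lay far apart. The CD10 difference in M1B26 was 3.40 ± 0.77 (adjusted p = 0.0135). Intensities of POSTN were 6.01 and 5.17, 5.08 and 5.55, and 6.65 and 2.69 in MCF10A-CT. For POSTN, MC26 gave 7.79 and 1288, 12.4 and 55.9, and 40.9 and 228 and M1B26 31.8 and 55.0, 97.9 and 32.8, and 1206 and 927. Periostin, a fasciclin-domain protein of injured and remodelled tissue, thus reached its highest single reading in unsorted MC26 replicate 2, and the CD10+ M1B26 pair came next. Its difference of 4.19 ± 1.5 between CD10+ and CD10- M1B26 did not pass (adjusted p = 0.117), while it passed with the replicate block (adjusted p = 0.00609) and in the fit without unsorted MC26 replicate 2 (adjusted p = 0.00289).

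Further glycoproteins moved less. The SPARC readings were 440.2 and 374, 409 and 665, and 359.8 and 598 in MCF10A-CT. They were 318 and 158, 575 and 329.8, and 497 and 377 in MC26 and 385 and 361, 794 and 506, and 1388 and 1368 in M1B26. SRPX read 387 and 358, 555 and 1061, and 703 and 1090 in MCF10A-CT. In MC26 SRPX read 852 and 950.0, 1918 and 967, and 1581 and 1313, and M1B26 gave 1026 and 1054, 2307 and 865, and 3958 and 2968. Both SPARC, which binds collagen, and SRPX, a sushi-repeat protein, were brightest in CD10+ M1B26, at 1.12 ± 0.37 and 1.28 ± 0.41 above CD10- M1B26, without passing (adjusted p = 0.0845 and 0.0781, against 0.0123 and 0.0221 with the block). TNC, the gene of tenascin-C, differed by -1.37 ± 0.65 (adjusted p = 0.264), with its highest reading of 433 in unsorted MC26 replicate 2. THBS1, an adhesive glycoprotein that can activate TGF-beta, differed between CD10+ and CD10- cells by -0.06, -0.15 and -0.47 in MCF10A-CT, MC26 and M1B26, and did not pass.

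Of 5 elastic fibre genes tested, 3 were higher in CD10+ M1B26. Intensities of FBN1 were 19.1 and 22.8, 29.6 and 10.2, and 12.2 and 28.1 in MCF10A-CT. For FBN1, MC26 gave 13.8 and 26.1, 29.1 and 14.5, and 27.6 and 17.6 and M1B26 44.9 and 24.8, 24.0 and 16.2, and 162 and 163. The fibrillin-1 gene FBN1 was 2.98 ± 0.55 higher (adjusted p = 0.00333), with its 2 other probe sets not above background. FBLN1, the gene of fibulin-1, read 107 and 99.1 in CD10- and 356 and 358 in CD10+ M1B26, 1.78 ± 0.37 higher (adjusted p = 0.0079). EFEMP1, the gene of fibulin-3, read 3137 and 1788 against 6784 and 5645, 1.39 ± 0.30 higher (adjusted p = 0.00963). FBN2, the fibrillin of embryonic tissue, went by -0.76 ± 0.38 and the microfibril protein gene MFAP5 by -1.03 ± 0.53, neither passing. The MFAP2 readings were 15.8 and 1.86, 7.22 and 8.98, and 16.1 and 9.62 in MCF10A-CT. They were 9.46 and 10.6, 47.5 and 30.1, and 21.9 and 6.15 in MC26 and 11.7 and 6.86, 17.0 and 11.0, and 16.2 and 13.2 in M1B26. MFAP2, also a microfibril protein, had its highest readings in CD10- MC26 and was not tested.

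The crosslinking enzymes were higher in CD10+ M1B26 for LOX and LOXL1. LOX read 178 and 206, 492 and 805, and 648 and 849 in MCF10A-CT. In MC26 LOX read 119.8 and 197, 160.3 and 104, and 113 and 164, and M1B26 gave 250.0 and 197, 206 and 124, and 738 and 709. The brightest LOX arrays were thus those of both sorted populations of MCF10A-CT and of CD10+ M1B26. LOX was 2.17 ± 0.34 higher in CD10+ than in CD10- M1B26 (adjusted p = 0.000835). Intensities of LOXL1 were 46.3 and 21.4, 61.1 and 59.2, and 60.1 and 62.3 in MCF10A-CT. For LOXL1, MC26 gave 80.6 and 14.9, 29.9 and 21.3, and 28.2 and 23.0 and M1B26 47.4 and 15.6, 7.19 and 8.18, and 57.6 and 33.1. In CD10- M1B26 both LOXL1 readings were near background, so the fold in M1B26 is at least 2.93 (adjusted p = 0.0378). The LOXL2 readings were 189.8 and 128, 148 and 343, and 200.1 and 274 in MCF10A-CT. They were 157 and 156, 412 and 138, and 365 and 151 in MC26 and 320.5 and 236, 223 and 252, and 739 and 776 in M1B26. LOXL2 was 1.67 ± 0.48 higher in CD10+ M1B26 and did not pass (adjusted p = 0.053), and with the block it did (adjusted p = 0.0108). PCOLCE, an enhancer of procollagen processing, read 1.83 to 34.5 over the 18 arrays and was not tested.

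**Figure D4:**
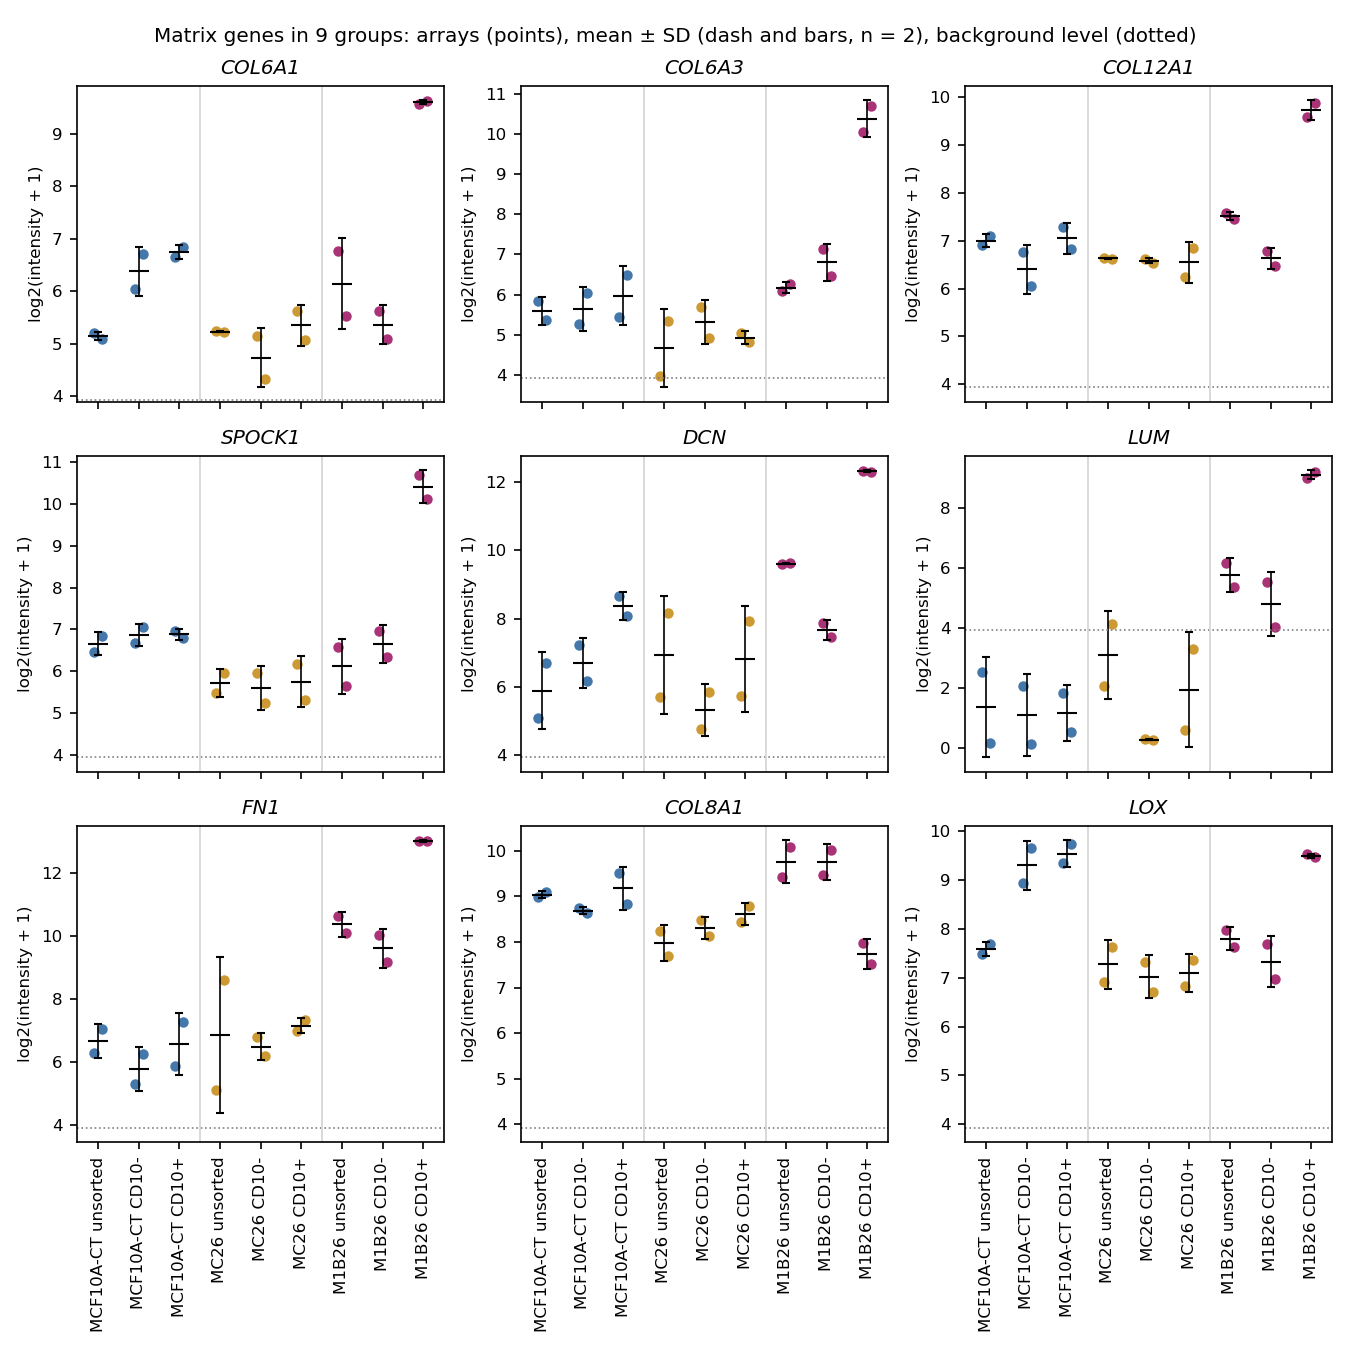
Log2(intensity + 1) (vertical axis) of 9 matrix genes in the 9 groups (horizontal axis), with 1 point per array, a dash and bars for mean ± SD of 2 arrays and a dotted line at background. COL6A1, COL6A3, COL12A1, SPOCK1, DCN, LUM and FN1 are highest in CD10+ M1B26, COL8A1 is lowest there, and the LOX points of sorted MCF10A-CT lie on both sides of those of CD10+ M1B26.

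Of the fibrillar collagens 3 were tested, and none passed in any comparison. COL1A1 read 98.1 and 113 in CD10- and 120 and 182 in CD10+ M1B26, a difference of 0.48 ± 0.60, COL5A2 differed by 0.49 ± 0.38 and COL27A1 by -0.35 ± 0.39. All COL1A1 values come from 1 of its 5 probe sets, with a mean log2 level of 6.86. Others had means of 2.58, 3.09 and 3.18, under the background of 3.93. COL1A2 read 2.56 and 6.74, 15.98 and 17.1, and 6.72 and 17.9 in MCF10A-CT. In MC26 COL1A2 read 11.2 and 30.1, 27.3 and 19.8, and 17.9 and 19.6, and M1B26 gave 8.65 and 18.2, 5.15 and 22.6, and 17.9 and 23.4. COL1A2, the partner of COL1A1 in collagen I, was at most 30.1 in any array. Its highest reading was in unsorted MC26 replicate 2, the array in which COL1A1 was also highest, at 317.

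The collagen IV genes among the members lie in head-to-head pairs, and whether this bears on their values was not tested. Between the starts of COL4A1 and COL4A2 on chromosome 13 lie 126 bases, and between those of COL4A5 and COL4A6 on chromosome X 379 bases. The stretch shared by the first pair and the 120 bases before each start of the second pair are shown because the members of a pair are transcribed away from each other from there. They are from RefSeq on GRCh38.p14, 5′ to 3′, with capitals for CCAAT and for GGGCGG on either strand. In the 126-base stretch (chr13:110307158-110307283, plus strand) COL4A2 reads to the right and COL4A1 to the left. The COL4A5 window is chrX:108439718-108439837 on the plus strand and the COL4A6 window chrX:108439459-108439578 on the minus strand.
COL4A1-COL4A2: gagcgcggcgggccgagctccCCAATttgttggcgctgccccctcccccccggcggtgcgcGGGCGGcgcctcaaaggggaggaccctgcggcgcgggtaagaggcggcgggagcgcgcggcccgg
COL4A5: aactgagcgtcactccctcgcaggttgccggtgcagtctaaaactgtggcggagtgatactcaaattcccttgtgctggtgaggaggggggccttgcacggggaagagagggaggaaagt
COL4A6: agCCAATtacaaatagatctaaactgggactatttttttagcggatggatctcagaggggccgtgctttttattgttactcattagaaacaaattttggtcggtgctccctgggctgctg
The shared stretch holds 1 CCAAT and 1 GGGCGG and no TATAAA, which was searched as well, and 80.2% of its bases are G or C. The COL4A6 window holds 1 CCAAT, and the COL4A5 window none of the 3 motifs. CCAAT occurs in 21.1% and GGGCGG in 34.6% of the 126 bases before the start in all 35116 RefSeq windows. The 31 members with an entry have 37 windows, of which 11 hold CCAAT, 25 hold GGGCGG and 6 hold TATAAA within 250 bases before the start, where all windows hold them in 32%, 42.6% and 10.7%. The motifs do not overlap with each other in the stretches shown, and a match is a description of these letters.

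Of collagen IV, COL4A1 and COL4A2 form the network found in nearly all basement membranes, and COL4A5 and COL4A6 belong to chains of restricted distribution. COL4A1 read 597 and 529, 637 and 611, and 616 and 574 in MCF10A-CT, and 728 and 626, 710 and 576, and 573 and 599 in MC26, in the same order. In M1B26 it read 988 and 771, 980 and 780, and 1288 and 1546, so that the 6 M1B26 arrays were above the 12 others. COL4A2 read 481 to 696 in the 12 arrays of MCF10A-CT and MC26, and 662 and 703, 1217 and 778, and 1227 and 1227 in M1B26. COL4A6 read 432 and 339 in CD10+ M1B26, the lowest of all groups. Within M1B26 the CD10 differences were 0.69 ± 0.20 for COL4A1 (adjusted p = 0.0522), 0.33 ± 0.22 for COL4A2, -0.20 ± 0.24 for COL4A5 and -0.86 ± 0.25 for COL4A6 (adjusted p = 0.0531), and none passed. With the block COL4A1 and COL4A6 did (adjusted p = 0.0438 and 0.0128). Intensities of COL18A1 were 11.6 and 8.0, 20.2 and 31.9, and 37.9 and 31.5 in MCF10A-CT. For COL18A1, MC26 gave 6.40 and 18.9, 13.7 and 22.1, and 14.9 and 14.7 and M1B26 22.6 and 11.1, 8.66 and 20.1, and 94.7 and 92.4. COL18A1, the collagen that gives rise to endostatin, was 2.73 ± 0.54 higher in CD10+ M1B26 (adjusted p = 0.00531), with 1 of 2 CD10- arrays above background and their mean just under it. Set against background for the array below it, the difference was at least 5.27-fold. The 1 other probe set of COL18A1 was not above background. The NID1 readings were 5.97 and 1.00, 8.20 and 16.9, and 2.56 and 4.68 in MCF10A-CT. They were 6.03 and 3.75, 5.36 and 9.18, and 16.6 and 17.3 in MC26 and 9.52 and 3.56, 14.3 and 1.29, and 12.5 and 6.15 in M1B26. NID1, a linker of laminin and collagen IV, was 1.00 to 17.3 in all arrays and was not tested.

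**Figure D5:**
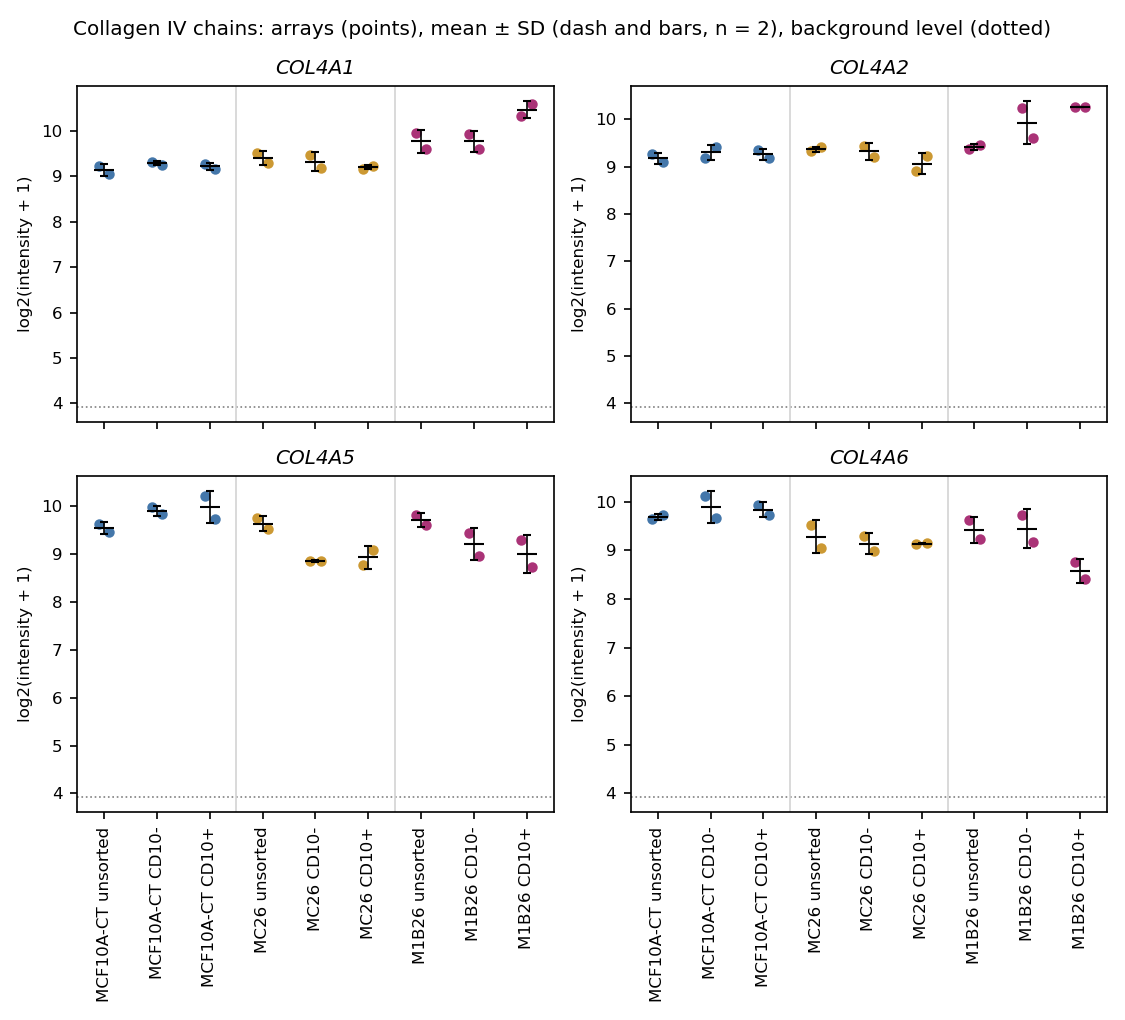
Log2(intensity + 1) (vertical axis) of COL4A1, COL4A2, COL4A5 and COL4A6 in the 9 groups (horizontal axis), with 1 point per array, a dash and bars for mean ± SD of 2 arrays and a dotted line at background. COL4A1 and COL4A2 are highest, and COL4A6 is lowest, in CD10+ M1B26.

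Of the 14 calls between CD10+ and CD10- M1B26, 8 passed whichever of the 4 M1B26 arrays was left out, namely COL6A1, COL6A3, COL12A1, COL8A1, DCN, SPOCK1, FBN1 and LOX. Here and below, counts of members with 1 array left out are given without the share of all genes passing in that fit. A drop in the members is thus not told apart from a fit that calls fewer genes. FN1 and FBLN1 missed the threshold without CD10- replicate 2, CD10+ replicate 1 or CD10+ replicate 2 (adjusted p = 0.0864 to 0.134 and 0.0632 to 0.0692), COL18A1 without CD10- replicate 1 or CD10+ replicate 1 (0.0642 and 0.0503), EFEMP1 without CD10- replicate 2 or CD10+ replicate 1 (0.148 and 0.108), VCAN without CD10- replicate 2 (0.0525), and LOXL1 without any of the 4 (0.0872 to 0.271). LOXL1 also missed it with a pseudocount of 16 or quantile normalization (adjusted p = 0.0701 and 0.0517), and FBLN1 by the mean over its probe sets (adjusted p = 0.186).

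In MCF10A-CT and in MC26 no member passed between CD10+ and CD10- cells, and no gene of all 12171 did either, 0.0% in both directions of both lines. Even the sorted gene MME, 2.3 ± 0.64 higher in CD10+ MCF10A-CT and 2.5 ± 0.64 higher in CD10+ MC26, did not pass. The lack of calls in these lines thus does not show that the members were unchanged. At an unadjusted p under 0.05, 2 members and 166 genes were counted in MCF10A-CT and 0 members and 100 genes in MC26. The members' median was 0.11 in MCF10A-CT and 0.00 in MC26, against -0.05 and -0.10 over all genes. The widest member differences were DCN in MCF10A-CT at 1.67 ± 0.75 and POSTN in MC26 at 1.83 ± 1.5. Blocked on the replicate over the 12 sorted arrays alone, DCN and FN1 passed in MCF10A-CT, DCN and POSTN in MC26 and 24 members in M1B26, but that fit has 3 residual degrees of freedom and an infinite prior, so its p-values take the variance trend as known.

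The difference between lines was tested directly for M1B26 and MCF10A-CT. The CD10 difference was larger in M1B26 for 4 members and smaller for 1, against 0.666% and 0.715% of all genes. For the sorted gene MME it was 2.88 ± 0.90 larger in M1B26, without passing (adjusted p = 0.173). The part of this in the members' differences was not tested. COL6A1 differed by 3.88 ± 0.56 (adjusted p = 0.0027), SPOCK1 by 3.75 ± 0.55 (0.00299), COL6A3 by 3.25 ± 0.66 (0.0242) and COL12A1 by 2.45 ± 0.40 (0.00557), all with adjusted p-values, and COL8A1 by -2.50 ± 0.43 (adjusted p = 0.00796). With the block 8 members passed, the added ones being FBLN1, LOX and DCN, and 21 over the sorted arrays alone with the same limit on that fit. Without CD10- replicate 2 or CD10+ replicate 2 of M1B26 it was 3, since COL6A3 (adjusted p = 0.134 and 0.122) and COL8A1 (0.052 and 0.0507) were lost. COL6A3 was also lost without MCF10A-CT CD10- replicate 2, MCF10A-CT CD10+ replicate 1 or M1B26 CD10+ replicate 1 (adjusted p = 0.0516 to 0.0931). By the mean over all probe sets of a gene, COL12A1, COL6A1 and COL8A1 no longer passed (adjusted p = 0.0986, 0.137 and 0.218).

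CD10+ cells were next compared between lines, which shares the CD10+ arrays of M1B26 with the comparison within that line. CD10+ M1B26 cells had 17 members higher and 4 lower than CD10+ MCF10A-CT cells, while 21.1% of all genes were higher and 5.32% lower. The median over all genes was shifted by 0.31, against 1.21 for the members, 0.92 for all 44. MME, the sorted gene, was itself 4.32 ± 0.64 higher (adjusted p = 0.000376). FN1 was 6.43 ± 0.77 higher (adjusted p = 5.91e-05) and COL6A3 4.40 ± 0.47 higher (adjusted p = 2.25e-05). POSTN, near background in all MCF10A-CT arrays, was at least 69.3-fold higher (adjusted p = 0.00267). The 3 other probe sets of POSTN, like the 3 others of LOXL2, were not above background. DCN (3.94), SPOCK1 (3.53), FBN1 (3.07), COL6A1 (2.86) and COL12A1 (2.68) followed, and SRPX (1.97), EFEMP1 (1.84), LOXL2 (1.69), SPARC (1.57) and VCAN (1.55) were higher by less. In LUM, tested only without the limit on dim genes, CD10+ M1B26 was at least 36.3-fold higher (adjusted p = 0.00014), since both CD10+ MCF10A-CT arrays were near background.

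By the chosen probe sets, collagen IV split along its gene pairs in this comparison. COL4A1 was 1.25 ± 0.20 higher (adjusted p = 0.00069) and COL4A2 1.00 ± 0.22 higher (adjusted p = 0.0047), while COL4A6 was 1.25 ± 0.25 lower (adjusted p = 0.0031) and COL4A5 0.97 ± 0.24 lower (adjusted p = 0.00993). The other probe sets above background had the same signs, at 0.42 for COL4A1, 0.31 for COL4A2, -0.57 for COL4A5 and -2.40 to -1.12 for COL4A6. Those of COL4A1 and COL4A2 were close to the median of 0.31 over all genes, so they show little rise beyond that shift. COL8A1 (-1.43) and COL16A1 (-1.20), a collagen that binds integrins near the basement membrane, were lower as well. COL16A1 read 111 and 77.0, 243 and 282, and 311 and 278 in MCF10A-CT. In MC26 COL16A1 read 42.3 and 36.8, 49.9 and 57.8, and 47.7 and 61.4, and M1B26 gave 38.1 and 49.8, 86.7 and 74.8, and 179 and 91.2. The 4 sorted MCF10A-CT arrays were the brightest in COL16A1. LOX, bright in both groups, differed by -0.04 ± 0.34.

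THBS1 (1.36) and FBN2 (1.18) were also higher in CD10+ M1B26 than in CD10+ MCF10A-CT. When arrays were centred on the tested genes, THBS1, FBN2 and LOXL2 kept their sign but no longer passed (adjusted p = 0.0603, 0.0916 and 0.0864), nor did they after quantile normalization (0.0614, 0.147 and 0.0894), and 2 of the other probe sets of FBN2 were at -0.76 and -0.13. Of the 21 calls 12 passed whichever array was left out. Without M1B26 CD10+ replicate 2 it was 13 members, with COL16A1, COL4A5, COL4A6, COL8A1, FBN2, LOXL2, SPARC and THBS1 lost (adjusted p = 0.0501 to 0.211). COL4A2, COL16A1 and FBN2 were lost without MCF10A-CT CD10+ replicate 2 (adjusted p = 0.0526, 0.061 and 0.307), COL4A5 and THBS1 without MCF10A-CT CD10+ replicate 1 (0.0688 and 0.0544), FBN2 without M1B26 CD10+ replicate 1 (0.0578) and LOXL2 without any of the 4 (0.064 to 0.106). COL8A1, FBN2 and THBS1 also missed it by the mean over probe sets (adjusted p = 0.144, 0.855 and 0.325).

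In CD10+ MC26 against CD10+ MCF10A-CT cells, 1 member was higher and 6 were lower, beside 7.99% and 5.47% of all genes. The median was -0.53 for the members and 0.08 over all genes. LOX was 2.44 ± 0.34 lower (adjusted p = 0.00152) and COL16A1 2.42 ± 0.31 lower (adjusted p = 0.00104), and these 2 passed whichever array was left out. FBLN1 (-1.78), COL7A1 (-1.45), COL6A1 (-1.40) and COL4A5 (-1.05) were lower and THBS1 (1.08) higher. Intensities of COL7A1 were 52.6 and 91.7, 87.3 and 74.7, and 80.1 and 103 in MCF10A-CT. For COL7A1, MC26 gave 10.6 and 32.1, 13.0 and 30.6, and 33.1 and 32.3 and M1B26 44.1 and 37.2, 49.5 and 59.7, and 109 and 109. COL7A1 had its 2 lowest readings in MC26 replicate 1, unsorted and CD10-. Leaving out 1 array left 2 to 4 calls: COL6A1, COL7A1 and THBS1 were each lost without any of the 4 arrays (adjusted p = 0.0521 to 0.197, 0.0649 to 0.266 and 0.0748 to 0.263), COL4A5 without MCF10A-CT or MC26 CD10+ replicate 1 (0.0665 and 0.0894), and FBLN1 without MCF10A-CT CD10+ replicate 2 or MC26 CD10+ replicate 1 (0.0725 and 0.0844). By the mean over probe sets COL6A1, COL4A5, FBLN1 and THBS1 did not pass (adjusted p = 0.858, 0.0946, 0.0671 and 0.0785), nor did THBS1 after quantile normalization or centring (0.0629 and 0.0628) or COL7A1 after centring (0.0504).

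In CD10- MC26 against CD10- MCF10A-CT cells, 2 members were higher and 8 lower, beside 13.4% and 6.54% of all genes, whose median was shifted by 0.13. LOX was 2.28 ± 0.34 lower (adjusted p = 0.000769), COL16A1 2.27 ± 0.31 lower (adjusted p = 0.000555) and FBLN1 1.97 ± 0.37 lower (adjusted p = 0.00307), and these 3 passed whichever array was left out. COL7A1 (-1.96), COL6A1 (-1.65), SPOCK1 (-1.27), COL4A5 (-1.05) and COL4A6 (-0.75) were lower, and THBS1 (1.17) and FBN2 (1.15) higher. Without MC26 CD10- replicate 1, MC26 CD10- replicate 2 or MCF10A-CT CD10- replicate 2 it was 4, 5 and 5 members, and each of the other 7 calls was lost without at least 1 array (adjusted p = 0.051 to 0.436). By the mean over probe sets COL4A6, COL6A1, FBLN1, FBN2 and THBS1 did not pass (adjusted p = 0.069 to 0.722), nor did FBN2 after quantile normalization (0.0742) or THBS1 after centring (0.0518). In FBLN1 1 of 3 other probe sets above background had the opposite sign (0.86).

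In CD10- M1B26 against CD10- MCF10A-CT cells, 5 members were higher and 5 lower, beside 19.8% and 6.66% of all genes. The members' median of 0.22 was close to the shift of 0.23 over all genes. FN1 was 3.82 ± 0.77 higher (adjusted p = 0.00323), with FBN2 (1.96), THBS1 (1.77), COL8A1 (1.06) and COL4A2 (0.63) also higher. LOX was 1.97 ± 0.34 lower (adjusted p = 0.00132), FBLN1 1.81 ± 0.37 lower, COL16A1 1.69 ± 0.31 lower and COL4A5 0.70 ± 0.24 lower, and LOXL1, near background in CD10- M1B26, was at least 4.01-fold lower (adjusted p = 0.00613). Leaving out 1 array left 7 to 10 calls. COL4A2 was lost without either MCF10A-CT CD10- array or M1B26 CD10- replicate 1 (adjusted p = 0.093 to 0.384), COL4A5 without either MCF10A-CT CD10- array or M1B26 CD10- replicate 2 (0.12 to 0.257), and COL8A1 without MCF10A-CT or M1B26 CD10- replicate 2 (0.105 and 0.136). Other probe sets above background had the opposite sign for COL4A2 (-0.30), 1 of FBN2 (-0.05), 1 of FBLN1 (1.16) and 1 of FN1 (-0.07). By the mean over probe sets COL4A2, COL4A5, COL8A1, FBLN1 and FBN2 did not pass (adjusted p = 0.128 to 0.589), nor did COL4A2 after quantile normalization or centring (0.132 and 0.103) or COL8A1 after quantile normalization (0.0729).

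Unsorted cells gave few calls. Unsorted MC26 against unsorted MCF10A-CT had 0 members called in limma, beside 0.197% of all genes higher and 0.123% lower. At an unadjusted p under 0.05 there were 9 of 32 members and 972 of 12171 genes. The 2 unsorted MC26 arrays differed widely in POSTN, FN1, DCN, COL1A1 and TNC, all higher in replicate 2, and in LOXL1, higher in replicate 1. Without replicate 1, POSTN, near background in unsorted MCF10A-CT and at least 84.4-fold higher, COL1A1 (2.21) and TNC (3.13) passed, and without replicate 2, COL7A1 (-2.61) did. Unsorted M1B26 had 2 members higher than unsorted MCF10A-CT and none lower, beside 0.542% and 0.131% of all genes. These were DCN at 3.72 ± 0.75 (adjusted p = 0.0295) and FN1 at 3.69 ± 0.77 (adjusted p = 0.0387), and neither passed when any 1 of the 4 arrays was left out (adjusted p = 0.0661 to 0.273 and 0.144 to 0.271). FN1 also missed it after quantile normalization or centring (adjusted p = 0.0718 and 0.0564), and DCN by the mean over probe sets (adjusted p = 0.105). Against unsorted MC26, unsorted M1B26 had 1 member higher, COL8A1 at 1.78 ± 0.30 (adjusted p = 0.0336), and none lower, beside 0.0739% and 0.0246%. COL8A1 was lost without MC26 replicate 2 or either M1B26 array (adjusted p = 0.0542 to 0.305) and by the mean over probe sets (adjusted p = 0.114), and 2 members passed without MC26 replicate 1, with POSTN at -4.91, and FN1 alone without MC26 replicate 2 (5.26).

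Unsorted and sorted cells were prepared differently, so preparation and population cannot be told apart between them. The counts that follow were not set beside all genes tested, so they are not a result particular to the members. The unsorted mean lay between the means of the 2 sorted populations for 16 of 32 tested members in M1B26 and for 3 each in MCF10A-CT and MC26. In the order MCF10A-CT, MC26, M1B26 it was below both for 22, 10 and 10 members and above both for 7, 19 and 6. LOX and COL16A1 in MCF10A-CT were among those below, with unsorted readings of 178 to 206 and 77.0 to 111 and sorted readings of at least 492 and 243. The lower LOX and COL16A1 of sorted MC26 were not called in unsorted cells, and whether those differences differ was not tested.

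Other genes of matrix production were read from 3 lists. Of enzymes and chaperones that fold, modify and export collagen, 25 of 33 were tested, and in M1B26 6 were higher and 2 lower in CD10+ than in CD10- cells, beside 3.76% and 2.74% of all genes. BMP1, the procollagen C-proteinase, was 2.14 ± 0.29 higher (adjusted p = 0.000239) and the lysyl hydroxylase gene PLOD2 1.18 ± 0.20 higher (adjusted p = 0.00174), while the prolyl hydroxylase gene P3H2 was 1.71 ± 0.35 lower and the lysyl oxidase relative LOXL3 at least 3.26-fold lower (adjusted p = 0.00818), with 1 of 2 CD10+ arrays above background. Between CD10+ M1B26 and CD10+ MCF10A-CT 10 were higher and 1 lower, beside 21.1% and 5.32% of all genes, with PLOD2 at 2.18, the collagen chaperone SERPINH1 at 1.60, FKBP14 at 1.32 and P3H2 at -4.72. Against the same populations of MCF10A-CT, 4 were higher and 3 lower in CD10- M1B26 (19.8% and 6.66% of all genes), 1 and 3 in CD10+ MC26 (7.99% and 5.47%) and 3 and 3 in CD10- MC26 (13.4% and 6.54%). P3H2 was among the lower ones in each (-3.15, -2.38 and -2.57) and was also called lower in unsorted MC26 (-2.61) and unsorted M1B26 (-2.41). SERPINH1 was called higher in CD10- M1B26 (1.02), CD10+ MC26 (0.79) and CD10- MC26 (0.74) too. Of 49 other matrix glycoproteins and proteoglycans 25 were tested, with 5 higher and 0 lower within M1B26, among them HTRA1 (1.49), LTBP3 (1.59), CCN1 (1.53) and CCN2 (1.46). Between CD10+ M1B26 and CD10+ MCF10A-CT 8 were higher and 1 lower, beside the same 21.1% and 5.32% of all genes, led by CCN2 (3.19), LTBP1 (1.68), CCN1 (2.47) and HTRA1 (1.01). Here 2 were higher and 4 lower in CD10- M1B26, 2 and 5 in CD10+ MC26 and 2 and 5 in CD10- MC26, each against the same population of MCF10A-CT and beside the shares of all genes just given. LTBP1 was also called higher in unsorted MC26 (1.94) and unsorted M1B26 (1.41) than in unsorted MCF10A-CT. Of the 24 collagen genes outside the members only 5 were bright enough to test, and none of them passed in any comparison.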

How the data were processed

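RNA of 18 cell line samples was hybridised to Affymetrix HG-U133 Plus 2.0 arrays. The deposited values are linear intensity per probe set from Affymetrix Expression Console, with MAS5 named in the authors' processing notes and no version given. The study's methods name RMA with quantile normalization, while the deposited intensity medians are equal on all arrays and the upper quartiles run from 95.1 to 124. Values were turned into log2(intensity + 1). The platform annotation was brought to RefSeq symbols (GRCh38.p14) by gene ID, which gave 41091 of 54675 probe sets 1 gene, 1801 several and 11721 none, and 62 are controls. Per gene the probe set with the highest mean was kept (19775 genes), and 12171 genes with a mean above the median of all probe set means were tested with limma 3.58.1 in R 4.3.3 (lmFit, eBayes with trend, 9 group means over all 18 arrays, 9 residual and 6.28 prior degrees of freedom). Adjusted p is Benjamini-Hochberg per contrast over all genes tested, two-sided, with a threshold of 0.05, in 11 contrasts.

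Members and lists were chosen with earlier results of these data known. Each member past the threshold is named with its value, every array is given for the 20 members with the widest range of group means, and up to 4 genes with the smallest p per contrast come from the lists of collagen biosynthesis, other collagens and other matrix genes. Markers were read for epithelial, leukocyte, endothelial, fibroblast and pericyte, and adipocyte cells. Fold changes are on the log2(intensity + 1) scale and understate changes of dim genes. Some probe sets can bind related transcripts.

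Same-numbered CD10- and CD10+ arrays of a line deviated together (correlation of their deviations from the group means 0.635 for the control line, 0.361 for MC26 and 0.184 for M1B26), which was not seen between unsorted and sorted arrays of a line (-0.01 to 0.12). Across lines within a population it was 0.458 for unsorted MC26 with unsorted M1B26 and -0.20 to 0.118 for the 8 other pairs. The numbers were therefore taken to pair the sorted arrays. Alternatives were another pseudocount, quantile normalization, centring, no limit on dim genes, the mean over probe sets, the replicate block, the compared groups alone and leaving out each array. The replicate block was a term per line for the CD10 differences and for the difference between them. In comparisons between lines it was a term for the replicate number shared by all lines. The block on sorted arrays alone and the fit without unsorted MC26 replicate 2 were added after seeing the data.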

Additional observations from a re-analysis of the deposited data

Results flagged for a closer look

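For 5 genes the CD10 difference in M1B26 was not the same as that in MCF10A-CT by the test of the difference itself. CD10+ minus CD10- in M1B26 exceeded that in MCF10A-CT by 3.88 log2 units for COL6A1, 3.75 for SPOCK1, 3.25 for COL6A3 and 2.45 for COL12A1. For COL8A1 it was -2.50, from a CD10 difference of -2.01 ± 0.30 in M1B26 (adjusted p = 0.000715) and one of 0.49 ± 0.30 in MCF10A-CT that did not pass (adjusted p = 0.9998, limma). All 5 rest on 2 arrays in each of 4 groups.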

How the results depend on the processing

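Of 70 called member differences none changed sign under any alternative, and 35 missed the threshold when some 1 array of their comparison was left out. Quantile normalization lost 9 of the 70, centring on the tested genes 8, a pseudocount of 16 lost 1, the mean over all probe sets 23 and the replicate block 0. Between lines that block was shared by all lines, whose same-numbered arrays mostly did not deviate together, so there it does not check pairing. In the fit without unsorted MC26 replicate 2 no call was lost outside the comparison with that group.

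The number of members called in each comparison is given next. Shares of all genes are not given beside these counts. A change in the members is thus not told apart from a fit that calls more or fewer genes. Between CD10+ and CD10- cells, MCF10A-CT had 0 calls and 2 with the block on sorted arrays alone. MC26 had 0, with 2 using only the compared groups and 2 with that block. M1B26 had 14, with 22 using the compared groups, 24 with that block, and 9 to 13 leaving out 1 array. The difference of M1B26 from MCF10A-CT had 5, with 3 by the mean over probe sets, 8 with the replicate block on all arrays, 8 with the compared groups, 21 with the block on sorted arrays and 3 to 7 leaving out 1 array. Unsorted MC26 against MCF10A-CT had 0, and 0 to 3 leaving out 1 array. Unsorted M1B26 against MCF10A-CT had 2, with 1 under each of quantile normalization, centring, no limit on dim genes and the mean over probe sets, 4 with the compared groups, and 0 leaving out any array. Unsorted M1B26 against MC26 had 1, with 0 by the mean over probe sets, 0 with the compared groups and 0 to 2 leaving out 1 array. CD10- MC26 against MCF10A-CT had 10, with 6 by the mean over probe sets, 6 with the compared groups and 4 to 8 leaving out 1 array. CD10- M1B26 against MCF10A-CT had 10, and 5 by the mean over probe sets. CD10+ MC26 against MCF10A-CT had 7, with 4 under no limit on dim genes, 4 by the mean over probe sets and 2 to 4 leaving out 1 array. CD10+ M1B26 against MCF10A-CT had 21, and 13 to 19 leaving out 1 array. Members near background throughout were 5, and 9 at the 60th percentile. The cause of these moves was not tested. With 2 arrays per group, leaving 1 out assumes that the lone array varies like the other groups. The replicate block changed no other count by over 1.5 times. Between unsorted M1B26 and MC26, whose same-numbered arrays deviated together, COL8A1 passed with it (adjusted p = 0.0455). That term was shared by all lines and populations, so the pass does not check the pairing of those arrays. Signal over background limits the 12 members that were not tested.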
